A study of Macaca mulatta with 16 samples.

Results

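The genes described here encode the subunits of the receptors for GABA, glycine and glutamate in the developing retina of the rhesus monkey (Macaca mulatta). They were taken by symbol from the deposited mRNA table, with patterns for the GABA-A, GABA-B and glycine receptors and for the AMPA, kainate, NMDA, delta and metabotropic glutamate receptors. The patterns matched 49 symbols, of which the rule leaves out 2, so 47 of 28633 genes are described. The rule goes by symbol and not by a measured value, though the genes were chosen with earlier results of these data known. The samples were punches of 2.5 mm from the retina of normal fetuses, taken on the temporal side at the presumptive fovea and at the matching place on the nasal side. There were 3 temporal and 3 nasal samples at 50 days gestational age, and 1 temporal and 1 nasal library each at 90 and 150 days. At 50 days the table holds only the authors' mean of each region, from single-end reads of 50 bp, so those values have no spread, while the later libraries were read as pairs of ends. A punch took a different share of the retina at each age, and at 50 days it reached past the foveal anlage. The labels do not say whether the temporal and nasal punches of an age came from 1 animal.

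GABA and glycine are the inhibitory transmitters of the retina, released by amacrine and horizontal cells, and glutamate is the transmitter of photoreceptors, bipolar cells and ganglion cells. GABA-A and glycine receptors are chloride channels of 5 subunits, while AMPA, kainate and NMDA receptors are cation channels of 4 subunits. GABA-B and metabotropic glutamate receptors act through G proteins. Which subunits are joined sets how a channel opens, which drugs bind it and where in the cell it is held.

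The later libraries held 17429349 to 19851990 recovered reads over all genes, so that 3 reads were worth 0.141 to 0.163 CPM (read counts scaled to library size). Retinal markers were present. The summed level of 8 rod genes was 2.97 CPM in temporal and 2.69 CPM in nasal retina at 50 days, and 4954 CPM in temporal and 4345 CPM in nasal retina at 150 days. Retinal pigment epithelium genes summed to between 13.3 and 78.9 CPM in all 6 columns. In a log2 ratio, 1 was added to each CPM value, which understates the differences of low genes. A gene was called 2-fold different when that ratio was at least 1 in size and its higher side had at least 1 CPM. No call between regions at 1 age has a replicate check. Plain ratios of 2 libraries are given with 95% Clopper-Pearson intervals, which cover counting error only and compare those libraries. In these bulk samples, fewer cells of a type and less RNA per cell cannot be told apart.

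Of the 47 subunit genes, 43 had at least 1 CPM in some column. The other 4 were GABRA4, GABRA6 and GABRP, which encode GABA-A subunits, and GLRA4, a glycine receptor alpha subunit. GABRA4 had at most 0.848 CPM and the other 3 at most 0.272 CPM. The plot of levels in all 6 columns shows 42 of these genes by family.

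**Figure D1:**
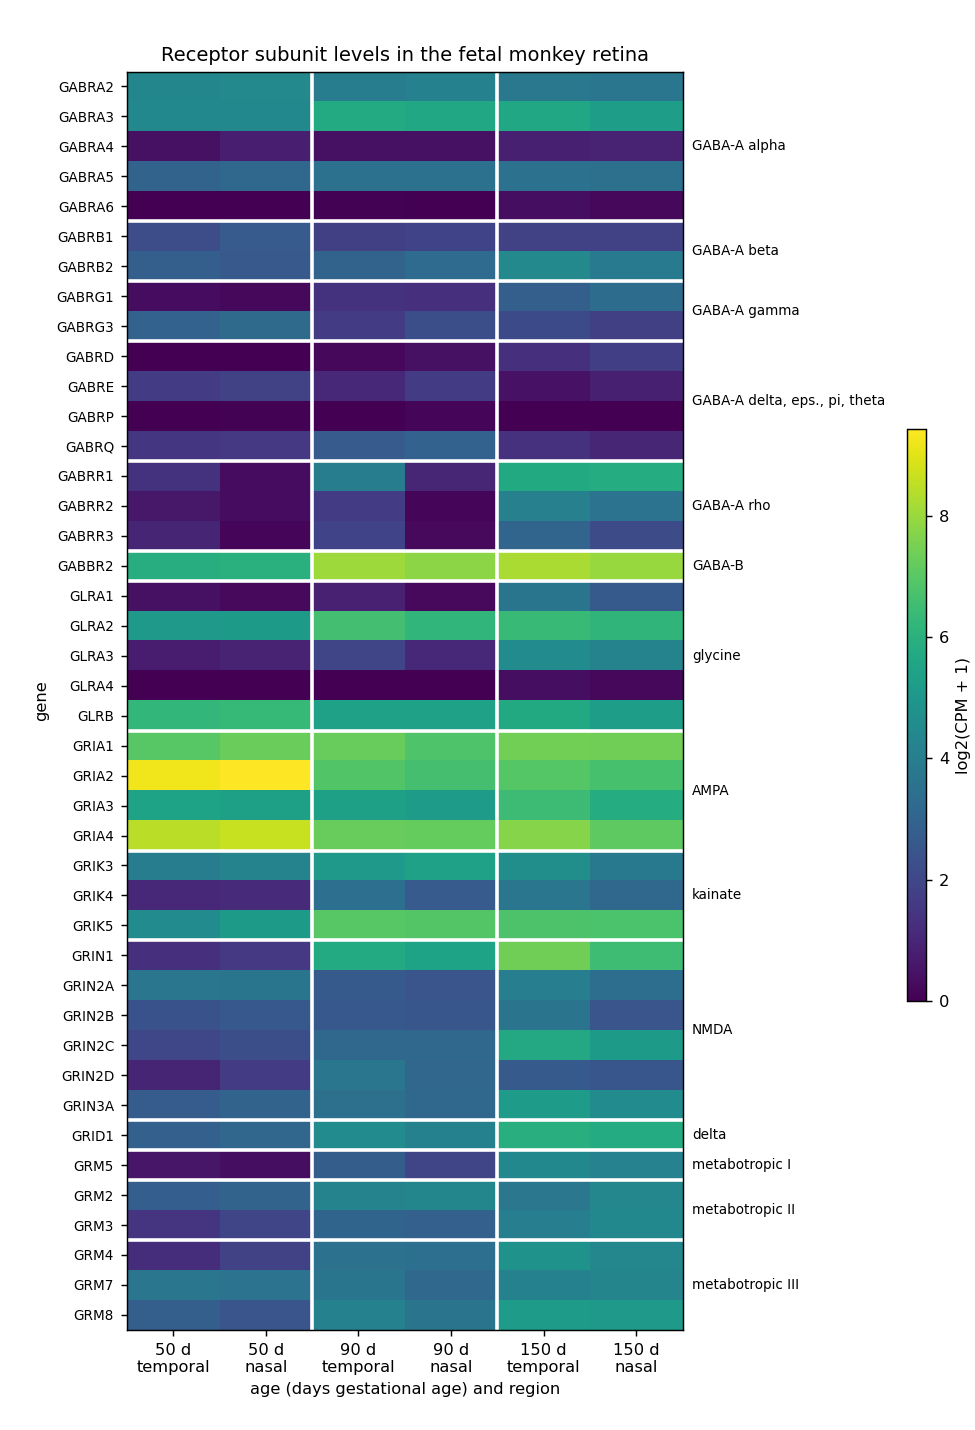
Levels of 42 receptor subunit genes, drawn as log2(CPM + 1) by colour, with genes down the page in their families and the 6 columns (temporal before nasal, at each age from 50 to 150 days) across. The rho genes GABRR1, GABRR2 and GABRR3 are brighter in the temporal than in the nasal column at 90 days, and GRIA2 is brightest at 50 days.

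Across ages, most of these genes had their highest level late. The mean of the 2 regions peaked at 50 days for 8 of the 43 genes, at 90 days for 8 and at 150 days for 27. Of all 15839 genes that reached 1 CPM, 41.1% peaked at 50 days, 22.6% at 90 days and 36.2% at 150 days. In temporal retina, 23 of 41 subunit genes were at least 2-fold higher at 90 than at 50 days and 5 were at least 2-fold lower, where all genes gave 30.4% higher and 23.7% lower. In nasal retina the counts were 18 higher and 4 lower of 39, where all genes gave 26.1% higher and 21.5% lower. Age and the change of read layout cannot be told apart in this step, nor in the counts of peaks at 50 days against later ages. At 150 against 90 days, 20 of 43 were 2-fold higher and 2 lower in temporal retina (10.8% and 7.74% of all genes), and 17 of 43 were higher and 2 lower in nasal retina (9.75% and 8.19% of all genes). The median log2 ratio of the subunit genes at 150 against 90 days was 0.86 in temporal and 0.59 in nasal retina, while that of all genes was -0.03 and 0.03.

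The step between 90 and 150 days was also tested with limma across all genes, with the regions standing in as replicates of an age and 1 residual degree of freedom. At a Benjamini-Hochberg adjusted p of 0.05, 24 of 43 subunit genes rose and 5 fell, where 22.8% of all 14292 genes rose and 21.9% fell. The largest rises in this fit were those of GABRR1 (log2 3.28 ± 0.44 SE, adjusted p = 2.29e-05) and GABRR2 (2.94 ± 0.26, adjusted p = 3.12e-07). The order depends on the method. With edgeR the glycine receptor gene GLRA1 rose most (log2 4.21, adjusted p = 0.00108). There GABRR2 had 3.95 (adjusted p = 0.00837) and GABRR1 3.37 (adjusted p = 0.0248). Among the genes that fell were GABRQ (-1.67), GRIK3 (-0.98), GRIN2D (-0.82) and GABRE (-0.69), with adjusted p-values between 3.87e-05 and 0.0187. With edgeR the call of GRIK3 was lost (adjusted p = 0.0526). If the punches of an age came from 1 animal, these p-values are too small.

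Between regions, the count of subunit genes past 2-fold was highest at 90 days with the minimum of 1 CPM. There 4 of 41 were at least 2-fold higher in temporal retina and 0 lower, where 0.864% of all genes were higher and 0.864% lower. At 50 days the counts were 2 of 36 higher and 0 lower (0.189% and 1.00% of all genes). At 150 days they were 2 of 42 higher and 0 lower (1.54% and 1.09% of all genes). Smaller differences leaned the same way at the later ages. The log2 ratio was above 0 for 33 of 41 subunit genes at 90 days and 34 of 42 at 150 days, where it was above 0 for 54.4% and 44.4% of all genes. At 50 days it was above 0 for 10 of 36, where all genes gave 47.3%. Median log2 ratios of the subunit genes at 50, 90 and 150 days were -0.17, 0.19 and 0.31, where those of all genes were -0.02, 0.03 and -0.04. With a pseudocount of 5 in place of 1, the counts of 2-fold higher genes were 0 at 50 days, 2 at 90 days and 0 at 150 days. With a minimum of 5 CPM they were 1, 2 and 2 at these ages, so that 90 days no longer stood above 150 days.

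**Figure D2:**
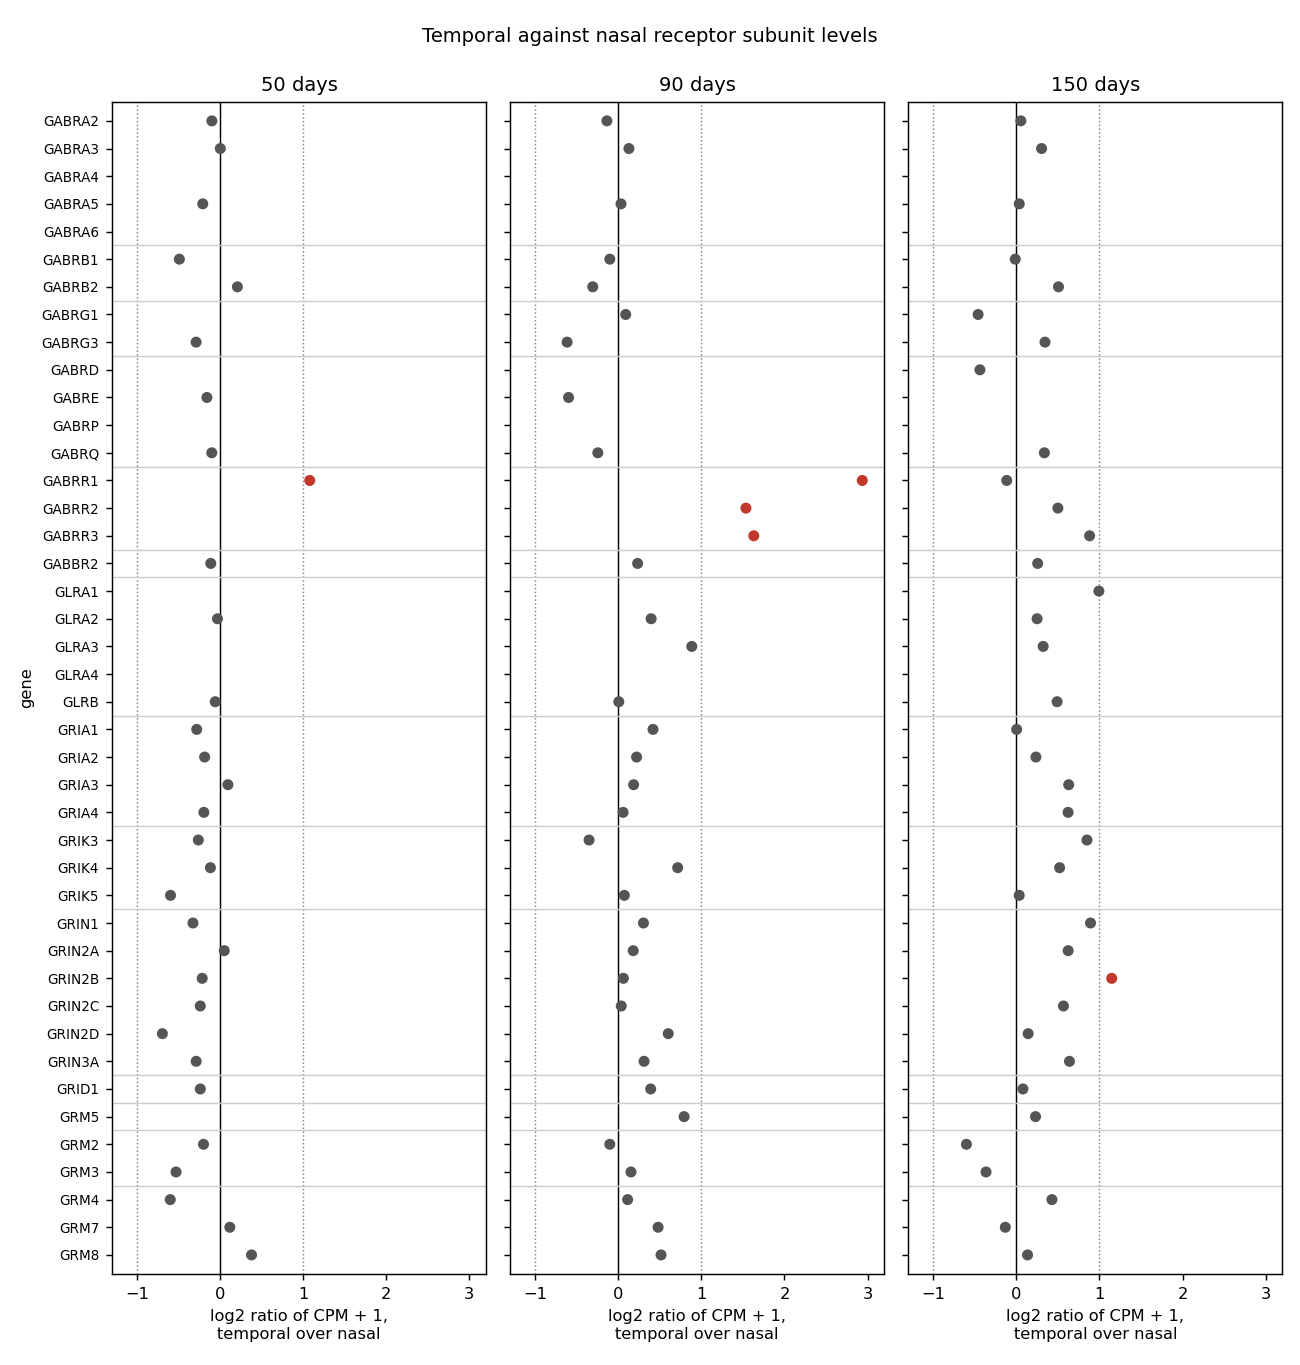
Log2 ratio of CPM + 1, temporal over nasal, for receptor subunit genes with at least 1 CPM on its higher side, in 1 panel per age, with dotted lines at the 2-fold limits and red points past them. At 90 days GABRR1, GABRR2 and GABRR3 lie past the right line, and no gene drawn lies past the left line at any age.

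The rho subunits form GABA-A receptors of their own, insensitive to bicuculline and known for their place on retinal bipolar cell terminals. GABRR1, encoding rho1, had 1.63, 14.6 and 51.6 CPM in temporal retina at 50, 90 and 150 days, against 0.247, 1.03 and 56.0 CPM in nasal retina. Its temporal level was thus far above the nasal one at 50 and 90 days and close to it at 150 days. The ratio was 14.1 (9.12 to 22.8) at 90 days and 0.922 (0.845 to 1.01) at 150 days, where the interval includes 1. GABRR2, encoding rho2, had 0.532, 2.17 and 16.0 CPM in temporal retina at 50, 90 and 150 days, against 0.235, 0.0941 and 11.03 CPM in nasal retina. The nasal library at 90 days held only 2 of its reads, so the ratio of 23.1 there has an interval of 6.02 to 197. At 150 days the ratio was 1.45 (1.22 to 1.74).

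GABRR3, encoding rho3, was the rho gene that stayed over 2-fold higher by the plain ratio at every age. It had 0.966, 2.68 and 7.46 CPM in temporal retina at 50, 90 and 150 days, against 0.0984, 0.188 and 3.59 CPM in nasal retina. The nasal library at 90 days held 4 of its reads, and the ratio was 14.2 (5.25 to 54.2) there and 2.08 (1.55 to 2.80) at 150 days. On the log2 scale of CPM + 1, the difference at 150 days was 0.88, under the 2-fold limit. Summed over the 3 rho genes, the level was 3.13, 19.4 and 75.1 CPM in temporal retina at 50, 90 and 150 days, against 0.580, 1.32 and 70.6 CPM in nasal retina. Between 90 and 150 days, the 3 log2 ratios ran between 1.20 and 2.42 in temporal retina and between 1.95 and 4.81 in nasal retina. GABRR1 and GABRR2 are neighbouring genes in the RefSeq annotation of the T2T-MMU8v2.0 assembly, and GABRR3 is not adjacent to them.

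Among the alpha subunits, GABRA2, encoding an alpha subunit common in immature neurons, had 19.1, 15.1 and 12.6 CPM in temporal retina at 50, 90 and 150 days, against 20.5, 16.6 and 12.1 CPM in nasal retina. GABRA3 had 20.1, 53.4 and 47.5 CPM in temporal retina at the same ages, against 20.1, 48.8 and 38.3 CPM in nasal retina. Their log2 ratios between regions lay between -0.14 and 0.30. GABRA5, whose subunit is mainly found outside synapses, had between 6.91 and 10.6 CPM in the 6 columns.

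Markers of some cell types were higher in temporal retina at 90 days, as the rho genes were. At 150 days GABRR2 and GABRR3 were still higher there, by plain ratios of 1.45 and 2.08. Of 10 bipolar genes, 7 were at least 2-fold higher in temporal retina at 90 days. At 150 days 0 were 2-fold higher and 1 was lower, LHX3, with 50.3 CPM in temporal and 127 CPM in nasal retina. The summed level of the 10 genes was 624 and 942 CPM in temporal retina at 90 and 150 days, against 306 and 1129 CPM in nasal retina, and none was at 0 in every column. At 50 days 4 of the 8 with at least 1 CPM were 2-fold higher in temporal retina, with sums of 99.97 CPM in temporal and 81.5 CPM in nasal retina. Of 9 amacrine markers, 0 were past 2-fold at any age. At most 1.54% of all genes were past it in 1 direction at an age, so this count is near that share. Of the cone genes, 3 of 6 were 2-fold higher in temporal retina at 50 days, 3 of 8 at 90 days and 0 of 8 at 150 days, with sums of 305, 414 and 2069 CPM in temporal retina, against 253, 322 and 1495 CPM in nasal retina. Vessel and blood genes stood the other way, with 2 of 7 at least 2-fold lower in temporal retina at 50 days, 5 of 7 at 90 days and 1 of 7 at 150 days. CDH5, an adhesion gene of vessel walls, had 0, 0.556 and 24.5 CPM in temporal retina at 50, 90 and 150 days, against 1.24, 12.9 and 35.3 CPM in nasal retina, and HBA1 was at 0 in all 6 columns. The sums of this list, 661 CPM in temporal and 716 CPM in nasal retina at 90 days, were mostly KDR, which did not differ 2-fold. Of 6 astrocyte and optic nerve genes, 2 were at least 2-fold lower in temporal retina at 90 days and 1 was higher. Those lower were GFAP (0.152 CPM in temporal and 15.5 CPM in nasal retina) and PAX2 (0.101 CPM in temporal and 5.97 CPM in nasal retina). The higher one was PDGFRA (13.8 CPM in temporal and 5.31 CPM in nasal retina). PAX2 was also 2-fold lower at 50 days (0.601 CPM in temporal and 3.52 CPM in nasal retina). At 150 days none was lower and 1 was higher, S100B (18.8 CPM in temporal and 6.09 CPM in nasal retina). Of the mesenchyme genes, 4 of 4 were 2-fold lower at 50 days, 2 of 3 at 90 days and 1 of 5 at 150 days. The part of these cell types in the differences of the receptor genes was not tested.

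**Figure D3:**
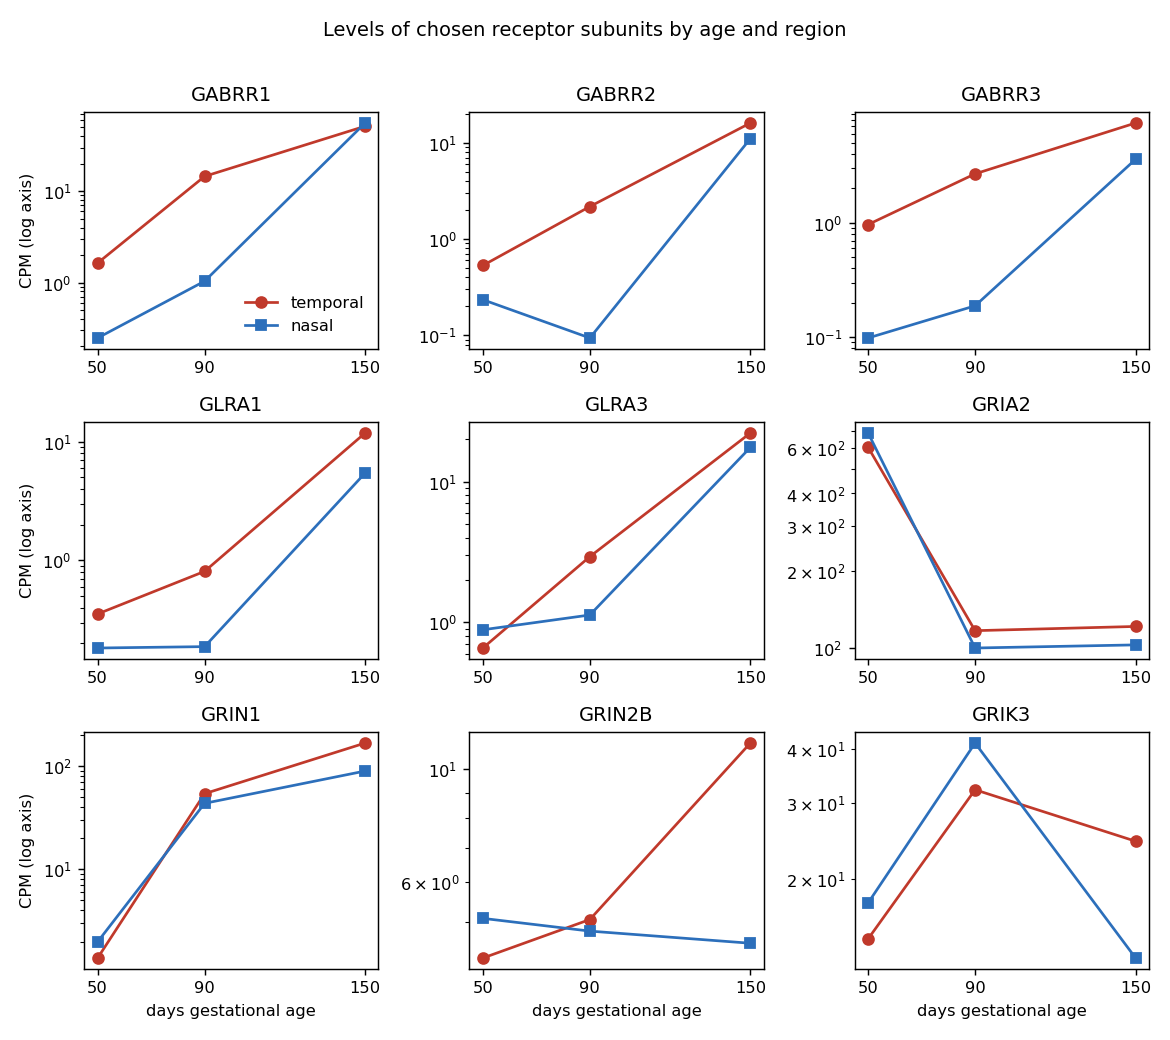
Levels in CPM, on log axes, of 9 receptor subunit genes against days gestational age, with temporal retina as red circles and nasal retina as blue squares, 1 value per region and age (the authors' mean of 3 samples at 50 days, 1 library later). The red and blue lines of GABRR1 meet at 150 days after 14.6 against 1.03 CPM at 90 days, while those of GRIN1 are farthest apart at 150 days.

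Among the beta subunits, which hold the GABA site together with an alpha subunit, GABRB2 had 6.16, 6.93 and 20.6 CPM in temporal retina at 50, 90 and 150 days, against 5.19, 8.79 and 14.2 CPM in nasal retina. Its temporal level was thus the lower one at 90 days and the higher one at 150 days. GABRB1 had between 2.48 and 5.55 CPM, with its highest values at 50 days.

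GABRG3 encodes a gamma subunit and had 6.82, 2.17 and 3.38 CPM in temporal retina at 50, 90 and 150 days, against 8.55, 3.86 and 2.44 CPM in nasal retina. GABRG1, encoding gamma1, had at most 0.252 CPM at 50 days, and at 150 days 6.26 CPM in temporal and 8.98 CPM in nasal retina, a ratio of 0.697 (0.547 to 0.886).

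The delta, epsilon, pi and theta subunit genes had at most 6.77 CPM. GABRQ, encoding theta, had 1.80, 5.56 and 1.52 CPM in temporal retina at 50, 90 and 150 days, against 1.99, 6.77 and 0.998 CPM in nasal retina. It was the only gene of this group that was 2-fold higher at 90 days and then 2-fold lower at 150 days in both regions. GABRD, encoding the delta subunit of extrasynaptic receptors, had at most 0.329 CPM up to 90 days, and at 150 days 1.47 CPM in temporal and 2.34 CPM in nasal retina. GABRE, encoding epsilon, was at its highest at 50 days, with 2.23 CPM in temporal and 2.60 CPM in nasal retina. GABA-A genes lie in clusters in the same RefSeq annotation. GABRA3 and GABRQ are adjacent there, and both were 2-fold higher at 90 than at 50 days in both regions. In the limma test between 90 and 150 days GABRQ fell (log2 -1.67 ± 0.24 SE, adjusted p = 3.87e-05). GABRA3 did not pass it (log2 -0.25 ± 0.16 SE, adjusted p = 0.210). Whether the 2 genes differ in this step was not tested.

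GABBR2 encodes the GABA-B subunit that couples to the G protein. It had 58.2, 262 and 298 CPM in temporal retina at 50, 90 and 150 days, against 62.9, 222 and 249 CPM in nasal retina. Its level was over 3-fold higher at 90 than at 50 days in both regions, at 4.50-fold in temporal and 3.53-fold in nasal retina, and it did not pass the test between 90 and 150 days (log2 0.18 ± 0.12 SE, adjusted p = 0.268).

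Glycine receptor genes split by subunit. GLRA2, encoding the alpha2 subunit that is the fetal form in spinal cord, had 33.7, 96.0 and 83.7 CPM in temporal retina at 50, 90 and 150 days, against 34.4, 72.7 and 70.2 CPM in nasal retina. GLRA1, encoding the alpha1 subunit of adult receptors, had 0.354, 0.809 and 11.8 CPM in temporal retina at 50, 90 and 150 days, against 0.183, 0.188 and 5.44 CPM in nasal retina. GLRA2 was thus no lower at 90 than at 150 days, whereas GLRA1 was low until then. GLRA3, encoding alpha3, had 0.658, 2.93 and 22.2 CPM in temporal retina at 50, 90 and 150 days, against 0.886, 1.13 and 17.5 CPM in nasal retina. In the test between 90 and 150 days GLRA3 rose by a log2 of 2.84 ± 0.23 SE and GLRA1 by 2.63 ± 0.23 SE (adjusted p = 1.32e-07 and 2.46e-07), and GLRA2 did not pass it (-0.12 ± 0.14, adjusted p = 0.515).

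GLRA1 was higher in temporal retina by 4.30-fold (1.39 to 17.7) at 90 days, from 16 and 4 reads, and by 2.17-fold (1.72 to 2.76) at 150 days. Its log2 ratio of CPM + 1 at 150 days was 0.99, just under the 2-fold limit. GLRA3 was 2.60-fold (1.59 to 4.37) higher at 90 days and 1.27-fold (1.09 to 1.46) at 150 days. GLRB, whose beta subunit ties the receptor to gephyrin, had 75.3, 41.0 and 52.0 CPM in temporal retina at 50, 90 and 150 days, against 78.4, 40.7 and 36.7 CPM in nasal retina. It was the glycine receptor gene with its highest values at 50 days.

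AMPA receptor genes together were highest at 50 days. The 4 genes summed to 1124, 457 and 586 CPM in temporal retina at 50, 90 and 150 days, against 1281, 391 and 463 CPM in nasal retina. GRIA2, whose subunit keeps AMPA receptors from passing calcium, had 605, 117 and 122 CPM in temporal retina at 50, 90 and 150 days, against 687, 100.2 and 103 CPM in nasal retina. GRIA4 had 349.5, 150.3 and 209.9 CPM in temporal retina at 50, 90 and 150 days, against 399.9, 144 and 136 CPM in nasal retina. Both were at least 2-fold lower at 90 than at 50 days in either region, across the change of read layout. GRIA1 did not do so, with 126, 149.5 and 169 CPM in temporal retina at 50, 90 and 150 days, against 153, 112 and 168 CPM in nasal retina. The ratio of GRIA1 to GRIA2, not corrected for length and read only across columns, was 0.209, 1.28 and 1.39 in temporal retina at 50, 90 and 150 days, against 0.223, 1.11 and 1.63 in nasal retina. GRIA3 rose between 90 and 150 days (log2 0.87 ± 0.16 SE, adjusted p = 0.000491), with 86.4 CPM in temporal and 55.5 CPM in nasal retina at 150 days. At that age temporal retina was higher by 1.56-fold (1.44 to 1.68) for GRIA3 and 1.54-fold (1.47 to 1.62) for GRIA4, while the ratio of GRIA1 was 1.00 (0.955 to 1.05).

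Among the kainate receptor genes, GRIK3, encoding a channel-forming subunit, was highest at 90 days. It had 14.5, 32.2 and 24.4 CPM in temporal retina at 50, 90 and 150 days, against 17.6, 41.2 and 13.1 CPM in nasal retina. The temporal level was the lower one at 50 and 90 days and the higher one at 150 days. GRIK5 and GRIK4 encode high-affinity subunits that need another kainate subunit to form a channel. GRIK5 had 22.5, 124 and 109 CPM in temporal retina at 50, 90 and 150 days, against 34.6, 118 and 106 CPM in nasal retina. GRIK4 had 1.06, 9.76 and 12.0 CPM in temporal retina at 50, 90 and 150 days, against 1.24, 5.55 and 8.08 CPM in nasal retina, so that temporal retina was 1.76-fold (1.39 to 2.23) higher at 90 days.

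GRIN1 encodes the glycine-binding subunit that every NMDA receptor needs, and it had the largest log2 ratio of the subunit genes between 50 and 150 days (5.59, mean of the regions). It had 1.38, 54.0 and 167 CPM in temporal retina at 50, 90 and 150 days, against 1.99, 43.5 and 89.4 CPM in nasal retina. At 90 days it was 39.0-fold above the 50-day mean in temporal and 21.9-fold in nasal retina, again across the change of read layout. GRIN2A and GRIN2B, encoding glutamate-binding subunits, were already present at 50 days. GRIN2A had 12.1, 5.36 and 15.3 CPM in temporal retina at 50, 90 and 150 days, against 11.7, 4.61 and 9.58 CPM in nasal retina. GRIN2C, encoding another glutamate-binding subunit, had 3.06, 8.04 and 50.7 CPM in temporal retina at 50, 90 and 150 days, against 3.78, 7.81 and 33.9 CPM in nasal retina. GRIN2D had its highest values at 90 days, with 12.1 CPM in temporal and 7.62 CPM in nasal retina. GRIN3A, whose subunit lowers calcium flow, had 35.6 CPM in temporal and 22.5 CPM in nasal retina at 150 days and between 5.64 and 10.2 CPM before.

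At 150 days all 6 NMDA receptor genes had a log2 ratio above 0, between 0.14 and 1.15. Their summed level was 27.4, 94.7 and 285 CPM in temporal retina at 50, 90 and 150 days, against 31.8, 76.3 and 165 CPM in nasal retina. GRIN2B had 4.24, 5.06 and 11.3 CPM in temporal retina at 50, 90 and 150 days, against 5.08, 4.80 and 4.54 CPM in nasal retina. Its nasal level was nearly the same at all 3 ages, and its temporal level stood apart at 150 days, past 2-fold with a ratio of 2.48 (1.93 to 3.21). The ratio at 150 days was 1.87 (1.76 to 1.98) for GRIN1, 1.60 (1.32 to 1.93) for GRIN2A, 1.58 (1.40 to 1.79) for GRIN3A and 1.50 (1.35 to 1.65) for GRIN2C, while the interval for GRIN2D included 1.

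GRM5 encodes a group I metabotropic receptor, which acts through calcium release. It had 0.469, 5.87 and 20.1 CPM in temporal retina at 50, 90 and 150 days, against 0.285, 2.96 and 17.0 CPM in nasal retina. It was thus farthest apart at 90 days, at 1.98-fold (1.44 to 2.73), and nearer at 150 days, at 1.18-fold (1.02 to 1.38).

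At 150 days some ganglion cell markers were higher in temporal retina, as GRIN2B and the sum of the NMDA receptor genes were. Of 8 ganglion cell genes, 5 were at least 2-fold higher in temporal retina at 150 days, 0 at 90 days and 0 at 50 days. Their summed level was 2498 and 7400 CPM in temporal retina at 90 and 150 days, against 1751 and 2827 CPM in nasal retina. At 150 days most of it was NEFL (3452 CPM in temporal and 1278 CPM in nasal retina) and NEFM (2679 and 936 CPM). Between 90 and 150 days 4 of the 8 were 2-fold lower and 1 was higher in nasal retina, where the NMDA sum rose from 76.3 to 165 CPM. In temporal retina 1 was lower and 4 were higher. The shares of all genes in this step are given above. Of 5 horizontal cell genes, 1 was past 2-fold at 150 days, CALB1, with 420.0 CPM in temporal and 119 CPM in nasal retina, and it was also past it at 90 days, with 31.2 CPM in temporal and 8.65 CPM in nasal retina. None of the 8 ganglion cell genes was at 0 in every column, and the part of the ganglion cells in the differences of the NMDA receptor genes was not tested.

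Group II and III metabotropic receptors lower transmitter release. GRM2 and GRM3, of group II, were the metabotropic genes below 1 in temporal over nasal at 150 days beyond counting error. GRM2 had 6.06, 17.7 and 12.5 CPM in temporal retina at 50, 90 and 150 days, against 7.09, 19.1 and 19.4 CPM in nasal retina, a ratio of 0.642 (0.543 to 0.758) at 150 days. GRM3 had 15.2 CPM in temporal and 19.9 CPM in nasal retina at 150 days, a ratio of 0.766 (0.655 to 0.895). Of group III, GRM8 had 6.22, 16.8 and 35.5 CPM in temporal retina at 50, 90 and 150 days, against 4.55, 11.5 and 32.2 CPM in nasal retina. GRM4 and GRM7, of the same group, had between 1.34 and 26.7 CPM and between 8.09 and 18.4 CPM in the 6 columns.

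Delta receptors bind cerebellins and related proteins rather than opening to glutamate. GRID1 had 6.40, 22.1 and 58.6 CPM in temporal retina at 50, 90 and 150 days, against 7.71, 16.6 and 55.4 CPM in nasal retina. Between 90 and 150 days GRID1 rose by a log2 of 1.52 ± 0.18 SE (adjusted p = 5.09e-06).

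A difference between regions that was shared by 90 and 150 days was tested with limma across 14292 genes, with an age term and the 2 ages standing in as replicates of a region. At a Benjamini-Hochberg adjusted p of 0.05, 3 of 43 subunit genes were higher in temporal retina and 0 lower, where 0.756% of all genes were higher and 0.448% lower. The call with the lowest adjusted p was that of GABRR3 (log2 1.26 ± 0.24 SE, adjusted p = 0.0238), higher in 2 of 2 ages. GABRR1, whose log2 ratio was 2.94 at 90 days and -0.11 at 150 days, had 1.41 ± 0.44 and did not pass (adjusted p = 0.138). At an unadjusted p of 0.05, 17 of 43 subunit genes passed, 16 of them higher in temporal retina, where 12.1% of all genes passed. These calls depend on the method, since the quasi-likelihood test of edgeR, run on the recovered reads, called 0 of all genes (1304, or 9.12%, at an unadjusted p of 0.05, among them 10 of 43 subunit genes), with a lowest adjusted p of 0.437 among the subunit genes. All 3 calls were also lost without the filter on low values and after rescaling the columns, and with a pseudocount of 0.5 only that of GABRR3 held.

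The change of a subunit gene with age and its ratio between regions at 90 days can be set side by side from separate columns, since the change between 50 and 150 days uses no 90-day library. That change sets the authors' means at 50 days against single libraries at 150 days. Age and the change of read layout cannot be told apart in it. Of the 24 subunit genes that were at least 2-fold higher at 150 than at 50 days, 22 had a log2 ratio above 0 at 90 days, with a median of 0.39. Of all 4666 genes with such a change, 71.6% were above 0, with a median of 0.12. All 4 subunit genes past 2-fold in temporal retina at 90 days were in this class, which is 4 of 24, while 2.21% of all genes of the class were past it. Of the 12 that changed under 2-fold between 50 and 150 days, 8 were above 0, where all genes gave 55.7%. Of the 5 that were 2-fold lower, 3 were above 0, where all genes gave 26.2%.

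**Figure D4:**
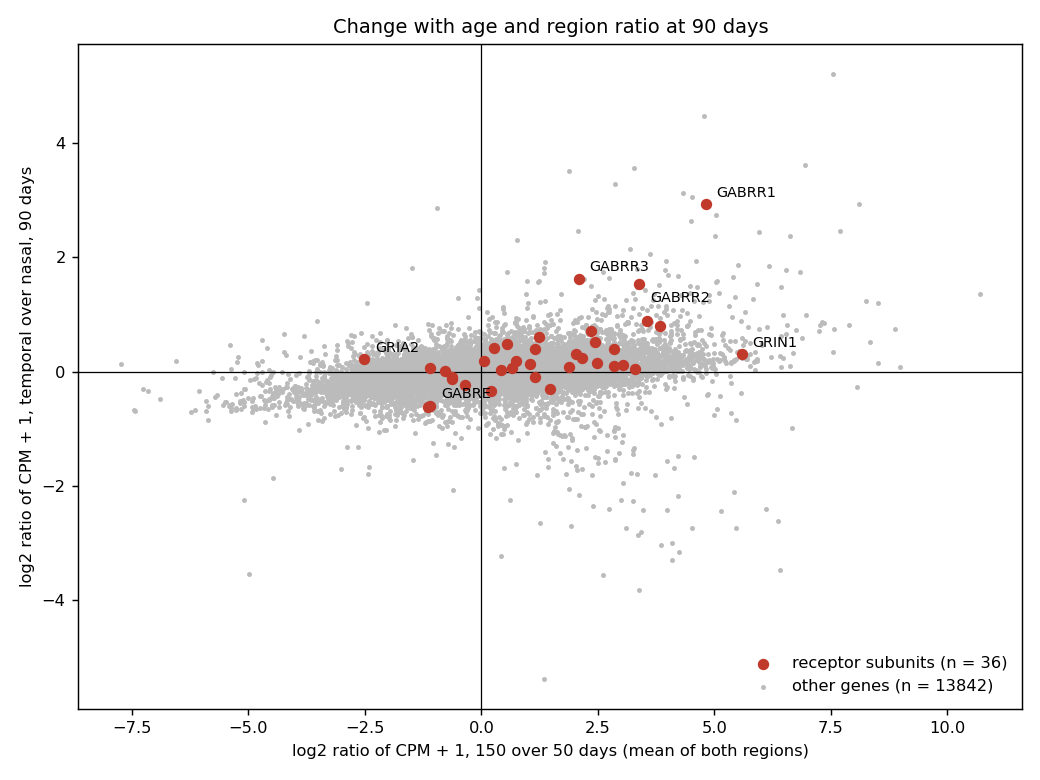
Log2 ratio of CPM + 1 at 150 over 50 days (mean of both regions, x axis) against the log2 ratio temporal over nasal at 90 days (y axis), for receptor subunit genes in red and other genes in grey. GABRR1, GABRR2 and GABRR3 lie high on the right, while GRIA2, at 0.22 on the y axis, lies far to the left. The x axis spans the change of read layout.

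Genes that serve these receptors were read from lists of the same pathways. Between regions, at most 1.54% of all genes were past 2-fold in 1 direction at an age, so a count of 0 in a short list is near the share of all genes. Of the GABA synthesis and transport genes, 0 of 4 were 2-fold different between regions at any age. At 90 against 50 days, 3 of 4 were 2-fold higher in either region, across the change of read layout. All genes gave 30.4% higher in temporal and 26.1% in nasal retina in this step. SLC12A5, the potassium-chloride transporter that sets whether GABA inhibits, had 6.65, 43.9 and 270 CPM in temporal retina at 50, 90 and 150 days, against 4.67, 27.9 and 204 CPM in nasal retina. The sodium-potassium-chloride transporter SLC12A2, which works the other way, had 116, 45.2 and 78.3 CPM in temporal retina at 50, 90 and 150 days, against 104, 50.5 and 70.6 CPM in nasal retina. Of the AMPA auxiliary subunits, 7 of 10 were 2-fold higher in the same step in either region, and 1 was 2-fold lower in nasal retina. Of the AMPA subunits themselves, 0 of 4 were 2-fold higher. None of the auxiliary subunits differed 2-fold between regions. Of the 2 kainate auxiliary subunits, NETO1 was 2-fold higher in temporal retina at 50 and 90 days but not at 150 days. NETO2 was not 2-fold different at any age. Of 9 glutamate release and uptake genes, 1 was past 2-fold in temporal retina at 90 days, the glutamate transporter SLC1A7 (64.5 CPM in temporal and 17.2 CPM in nasal retina). At 150 days 2 of the 9 were, the vesicular transporters SLC17A6 (332 CPM in temporal and 123 CPM in nasal retina) and SLC17A8 (24.7 CPM in temporal and 11.5 CPM in nasal retina). Of 9 ligands and partners of the delta receptors, 1 was past 2-fold at 90 days, C1QL2, with 13.2 CPM in temporal and 4.09 CPM in nasal retina. None of the inhibitory scaffold (5 genes) or excitatory scaffold genes (14) was 2-fold different between regions at any age.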

How the data were processed

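The authors removed ribosomal RNA with a Ribo-Zero Gold kit. Reads, single-end of 50 bp at 50 days and paired later, were aligned to Mmul_1 by Tophat 2.0.11 with Bowtie2 2.2.2, and Cufflinks 2.2.1 and Ensembl release 75 were used. The labels name edgeR and polyA RNA. The paper's methods name single-end reads of 50 bp and do not mention paired reads for the later ages. The counting program and its use of strand are not given in sources used here. The deposited values at 90 and 150 days are CPM per gene and library. At 50 days the authors deposited 1 averaged signal for each region, on a CPM scale, summing to 1.06e+06 (temporal) and 1.02e+06 (nasal). CPM steps gave back whole reads for 100% of values within 0.01 reads. miRNA values were not used here, and 0 columns belonged to other samples.

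Ratios used a pseudocount of 1. limma 3.58.1 (eBayes with trend, R 4.3.3) was fitted to log2(CPM + 1) of the 4 later libraries, for genes of at least 1 CPM in more than 1 of them. As an alternative, edgeR 4.0.16 was fitted to the recovered reads of the same genes. The fits and intervals were tested on simulated data. Other steps ran in Python 3.11.15 with SciPy 1.17.1, pandas 2.3.3, NumPy 2.4.6 and Matplotlib 3.10.9. Other alternatives varied the pseudocount (0.5, 5), the filter on low values (none, 5 CPM) and the scaling of the columns. No subunit symbol stood on several gene IDs. Values in every column are given for genes past 2-fold between regions, for the highest of a family and for the largest changes with age, and for some others, chosen after their values were seen, to complete a family. Counts cover all 47 genes, of which some are not reported here singly or drawn. The genes and lists were chosen with earlier results of these data known. The RefSeq gene table (T2T-MMU8v2.0) is another assembly than that of the files and was used only for neighbours.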

Additional observations from a re-analysis of the deposited data

Results flagged for a closer look

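For 2 subunit genes the temporal over nasal ratio lay below 1 at 90 days and above 1 at 150 days, with each counting interval on its own side of 1. With 1 library per region and age, the difference between the ages was not tested.

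GABRB2, a GABA-A beta subunit, had a ratio of 1.45 (1.24 to 1.70) at 150 days and 0.788 (0.627 to 0.987) at 90 days, so that the ratio at 150 days was 1.84 times that at 90 days. GRIK3, a kainate receptor subunit, had a ratio of 1.86 (1.60 to 2.18) at 150 days and 0.780 (0.703 to 0.865) at 90 days, so that the ratio at 150 days was 2.39 times that at 90 days. At 50 days the authors' means gave 1.19 for GABRB2 and 0.826 for GRIK3. The ganglion cell markers given above stood higher in the temporal library at 150 days, and their part was not tested.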

How the results depend on the processing

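Over 24 main counts and medians, 116 alternatives gave a like value and 15 did not. A like count need not be equal. With a pseudocount of 5, a count of 14 genes higher at 150 than at 90 days in temporal retina was scored as like the main 20. The 116 also include the counts of genes 2-fold lower in temporal than in nasal retina, which were 0 in every setting. The 116 include a sum over the IDs of a symbol, which could change nothing because no subunit symbol stood on several IDs. Reversal of direction was scored only for the medians, and none reversed. With a pseudocount of 5, the subunit genes 2-fold higher in temporal retina numbered 0 of 2 at 50 days, 2 of 4 at 90 days and 0 of 2 at 150 days. With the same pseudocount, those higher at 90 than at 50 days numbered 14 (temporal, main 23) and 6 (nasal, main 18), and those lower in temporal retina 3 (main 5). Those lower at 150 than at 90 days numbered 0 (temporal, main 2) and 1 (nasal, main 2), and rescaled columns left 1 in temporal retina. A minimum of 5 CPM left 1 gene at 50 days, 2 at 90 days and 2 at 150 days higher in temporal retina, so that the count was no longer highest at 90 days alone. Of the 3 calls shared by 90 and 150 days, 0 were left with edgeR, 1 with a pseudocount of 0.5, 0 with no filter on low values and 0 with rescaled columns. For the age test, edgeR kept 27 of the 29 calls (not GRIA1 and GRIK3). By replicate number, no paired analysis was possible because the 50-day samples that share replicate numbers are present only as means and each later age has 1 library per region. The test shared by 90 and 150 days compares temporal with nasal libraries within an age through its age term. No library was left out, since that would leave no residual degrees of freedom. The depth limits ratios of low genes, such as GABRR2 with 2 nasal reads at 90 days.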

Other observations

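Receptor genes that the symbols in the table did not name were looked up by identifier in a table of gene names. The identifier that this table names GABBR1, the GABA-B subunit that binds GABA, is listed in the mRNA table under the symbol UBD. It had 129, 355 and 328 CPM in temporal retina at 50, 90 and 150 days, against 142, 292 and 204 CPM in nasal retina. Its ratio was 1.22 (1.18 to 1.26) at 90 days and 1.61 (1.54 to 1.67) at 150 days, and which of the 2 symbols fits the reads was not tested. The identifier named GRIK2, a kainate receptor subunit, has no symbol in the mRNA table. It had 21.7, 5.51 and 6.42 CPM in temporal retina at 50, 90 and 150 days, against 22.0, 3.81 and 5.49 CPM in nasal retina.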
